A study of Mus musculus with 6 samples.

Results

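The 10 genes described here encode the contractile apparatus of smooth muscle: Acta2, Actg2, Myh11, Tagln, Cnn1, Mylk, Myl9, Des, Tpm1 and Tpm2. They were chosen by name, as genes of peritubular myoid cells and vascular muscle, and every probe set was taken whose annotation gave 1 of these symbols and no other. That gave 22 of 36701 probe sets, and 10 of 15964 named genes, with 11 probe sets from the chip U74Av2, 9 from U74Bv2 and 2 from U74Cv2. RNA labelled as total RNA of spermatogonia came from mice 1 week old of the background 129sv/c57Bl6, which the wild type and the knockout shared and which is spelled slightly differently from chip to chip. The groups were wild type (WT) and Zfp145 knockout (Null), and each was hybridised to 1 array of each chip, 6 arrays in all. Zfp145 is now called Zbtb16, or PLZF, a transcriptional repressor needed to keep spermatogonial stem cells. The labels do not give the kind of allele, how the cells were prepared, whether RNA was pooled over animals, or whether 1 extract served all 3 chips of a genotype.

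Peritubular myoid cells form a thin contractile sheath around each seminiferous tubule, and smooth muscle cells of the blood vessels express many of the same genes. Contraction starts when calcium and calmodulin activate myosin light chain kinase, which phosphorylates the regulatory light chain so that myosin can pull on filaments of smooth muscle actin. Tropomyosin, calponin and transgelin lie along these actin filaments, and desmin links the contractile units into a network. Many of these genes are controlled by serum response factor, SRF, which binds a DNA element called the CArG box with myocardin or its relatives as partners.

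Most contractile genes gave signal in this RNA, and none of their measured probe sets differed by 2-fold between the genotypes. Of the 22 probe sets, 13 exceeded the floor of their chip in WT and in Null, 1 in Null only and 8 in neither. The floor is the 40th percentile of the values on both arrays of a chip, 98.3 on U74Av2, 165 on U74Bv2 and 124 on U74Cv2, and a value under it was not used as a level. None of the 14 probe sets above the floor on at least 1 array differed by 2-fold or more, where 0.908% of all such probe sets did on U74Av2, 1.82% on U74Bv2 and 11.1% on U74Cv2. At least 1.5-fold was reached by 1 of the 14, a dim probe set of Acta2 on U74Cv2, against a background of 7.34%, 11.4% and 27.5% on the 3 chips. With these shares, a count of 0 or 1 among 14 is near the background and is not a result particular to these genes. With 1 array per genotype on a chip, differences cannot be checked against replicates, so none was tested and p-values are left out. Precision is limited by having so few arrays.

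A yardstick for a ratio came from genes with several probe sets on 1 chip. The spread between them was expressed as a robust standard deviation of a single log2 ratio, separately for the dimmest, middle and brightest class of probe sets. For U74Av2 these values were 0.35, 0.27 and 0.15. For U74Bv2 they came to 0.36, 0.34 and 0.24, and for U74Cv2 to 0.58, 0.44 and 0.31. It holds probe and transcript differences and says nothing of the spread between animals. A ratio larger than the spread at its level was found for 2 of 8 member probe sets on U74Av2, and for 2 of 4 from U74Bv2 and 1 of 1 from U74Cv2. Among all probe sets above the floor on both arrays that share was 37.6%, 34.3% and 33.4%. Throughout, a log2 ratio is that of null over wild type after scaling, and intensities are given as deposited.

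**Figure D1:**
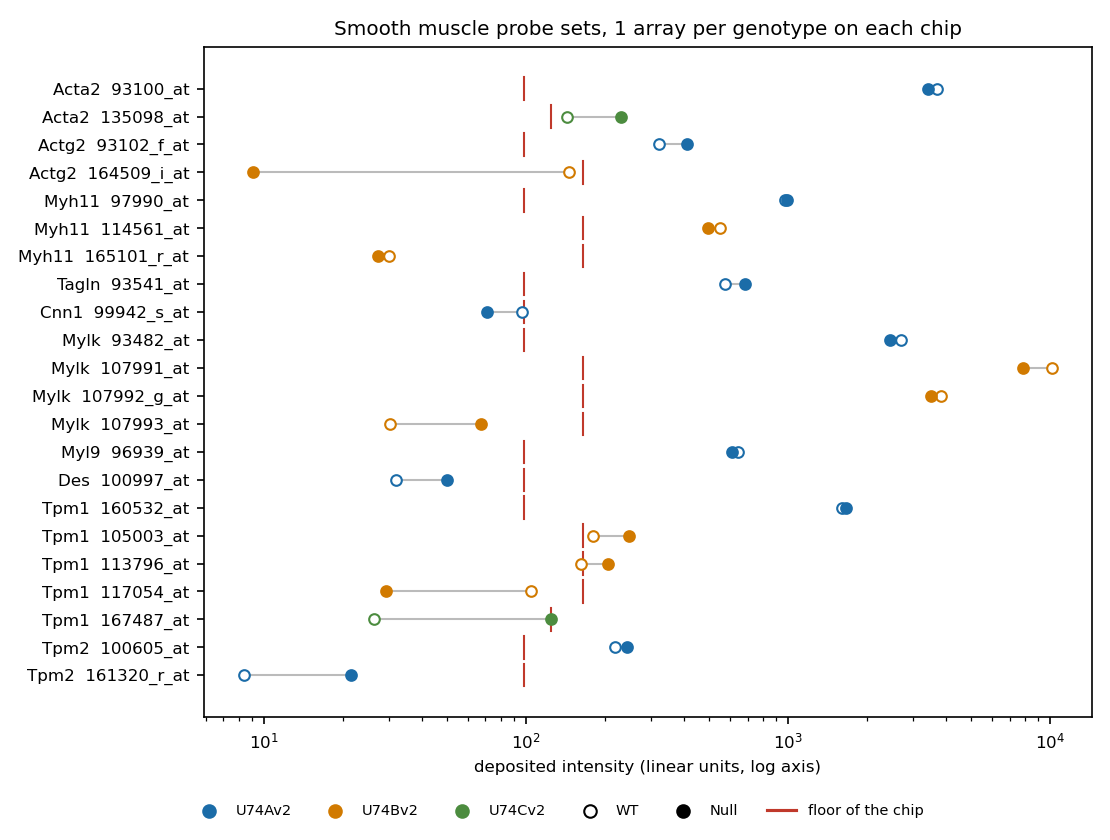
Deposited intensity of each of the 22 member probe sets (log axis) in WT (open circles) and Null (filled circles), coloured by chip, with the chip's floor as a red tick; each circle is 1 array. The 13 probe sets above the floor on both arrays have circles close together, and wide gaps appear where both values lie under the floor, as for Actg2 on U74Bv2, or where 1 lies near it.

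Myh11, the heavy chain of smooth muscle myosin and the motor of contraction, read almost the same in both genotypes on U74Av2. Its probe set 97990_at gave 969.4 in WT and 986.5 in Null, a log2 ratio of 0.02. On U74Bv2 the probe set 114561_at gave 550.9 in WT and 494.3 in Null, a log2 ratio of -0.16, which is smaller than the spread of 0.34 at its level. Its other set, 165101_r_at on U74Bv2, read 30 and 27.2, both far under the floor, and gives no ratio. Myh11 is known as one of the genes most restricted to smooth muscle, and both genotypes read it above the floor on both chips.

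Myl9, the regulatory light chain that the kinase phosphorylates, was measured by 1 probe set, 96939_at on U74Av2. It read 643.7 in WT and 611.6 in Null, a log2 ratio of -0.08 against a spread of 0.27.

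Mylk, the myosin light chain kinase, read lower in Null in each of its 3 probe sets above the floor. On U74Av2 93482_at read 2704.6 in WT and 2437.3 in Null, a log2 ratio of -0.16 beside a spread of 0.15. On U74Bv2 107991_at read 10125.1 in WT and 7879.2 in Null, which gives a log2 ratio of -0.37 (1.29-fold). The neighbouring design 107992_g_at read 3836.1 and 3493.9, a log2 ratio of -0.14, which is within the spread of 0.24. The 3 values have the same sign and span 0.23 on the log2 scale, but those on U74Bv2 come from the same pair of arrays and so are not repeats of the genotype comparison. The remaining probe set, 107993_at, read 30.3 and 67.3, under the floor of 165 on both arrays. The gene also makes a long form found in cells that are not muscle and the short protein telokin, and the annotation used here does not say which transcripts each probe set reads.

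Acta2, the vascular form of smooth muscle actin and the usual marker of peritubular myoid cells, gave opposite signs on its 2 chips. On U74Av2 93100_at read 3686.1 in WT and 3426.5 in Null, a log2 ratio of -0.11, which is within the spread of 0.15 at high level. On U74Cv2 135098_at read 142.8 and 230.3, a log2 ratio of 0.67, or 1.59-fold higher in the null, with the wild-type value just above the floor of 124 and a spread of 0.58 at that level. The probe sets differ by 0.78 on the log2 scale, more than the ratio of either, so the arrays give Acta2 no direction. The gene value of 0.28, the median of both, became -0.11 with the floor raised to the 60th percentile, which drops the dim probe set.

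Actg2, the enteric form of smooth muscle actin, was read above the floor by 93102_f_at on U74Av2, at 321.3 in WT and 411.5 in Null. The log2 ratio of 0.35 was larger than the spread of 0.27. The letter f in that name marks a set whose probes match a family of similar transcripts. Actb, the cytoplasmic actin of nearly all cells, stood at 0.29 and 0.31 on the same chip in its sets 101578_f_at and 95705_s_at, and Actg1, the other cytoplasmic actin, at 0.02 in 96573_at. Whether other actins contribute to the Actg2 signal was not tested. On U74Bv2 164509_i_at of Actg2 read 145.7 and 9.1, both under the floor of 165. That drop is the widest gap among the members and cannot be taken as a level difference, since neither array read the transcript above the floor.

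Tagln, or transgelin, an actin-binding protein that appears early in smooth muscle differentiation, read 574.7 in WT and 684 in Null in 93541_at on U74Av2. Its log2 ratio was 0.24, or 18.3% more signal, within the spread of 0.27. Cnn1, calponin, which damps the pull of myosin on actin and marks mature smooth muscle, was not above the floor on either array. Its probe set 99942_s_at read 96.9 in WT, just under the floor of 98.3, and 71.2 in Null.

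The tropomyosins, which lie in the groove of the actin filament, gave ratios above 0 in each set that exceeded the floor on both arrays. For Tpm1, alpha-tropomyosin, 160532_at on U74Av2 read 1604.2 in WT and 1659.3 in Null, a log2 ratio of 0.04. On U74Bv2 105003_at read 180.8 and 247, a log2 ratio of 0.45, beyond the spread of 0.36 but close to the floor of 165. The set 113796_at on U74Bv2, lay under the floor in WT at 161.7 and above it in Null at 206, a difference of at least 1.24-fold. The last Tpm1 sets, 117054_at at 104 and 29.1 on U74Bv2 and 167487_at at 26.4 and 124.8 on U74Cv2, count as at or under the floor on both arrays once the null is scaled. The ratio near 0 came from the set far above its floor, and the larger ones from sets near theirs. For Tpm2, beta-tropomyosin, 100605_at on U74Av2 read 217.6 in WT and 243.2 in Null, a log2 ratio of 0.15, within the spread of 0.35. Its second set, 161320_r_at, read 8.4 and 21.4, both under the floor. Both genes are also used by other muscle and, as shorter forms, by cells that are not muscle.

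Des, desmin, the intermediate filament protein of muscle, was not above the floor. Its only probe set, 100997_at on U74Av2, read 31.9 in WT and 49.9 in Null. With Cnn1, it was 1 of 2 member genes with no probe set above the floor, so 8 of the 10 genes were measured on both arrays of a chip. Over all named genes, 11320 of 15964 were measured in this way.

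**Figure D2:**
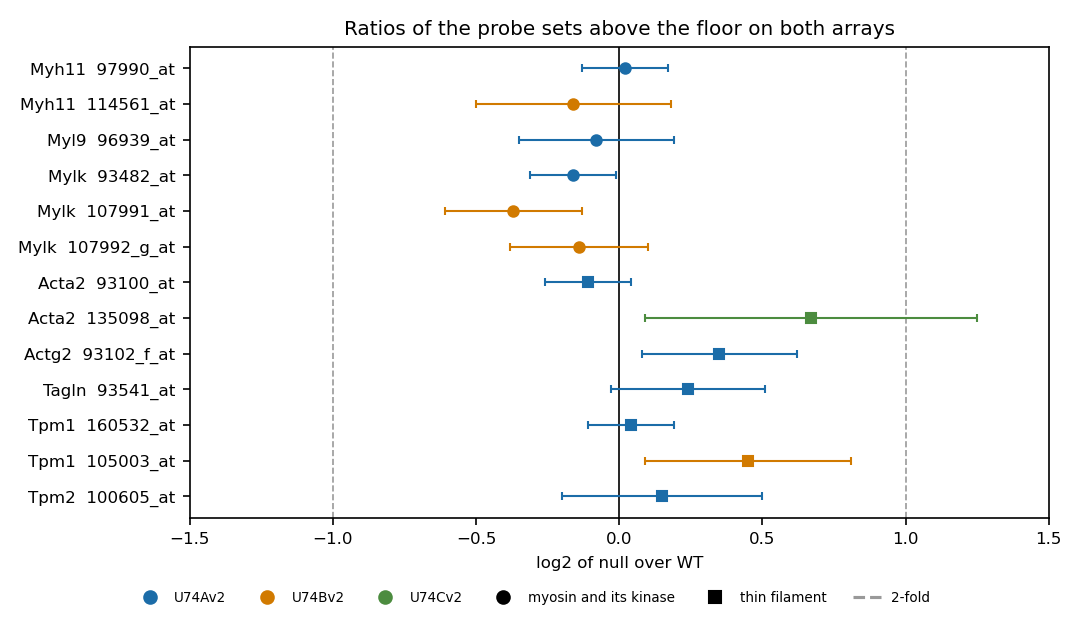
Log2 ratio of null over WT for the 13 member probe sets above the floor on both arrays, with bars of plus and minus the spread between probe sets of a gene at that level (not a replicate error), circles for myosin and its kinase and squares for thin filament genes. The points lie between -0.37 and 0.67, inside the dashed 2-fold lines; 5 of 6 circles lie left of 0 and 6 of 7 squares right of it.

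Grouped by role, the ratios fell on different sides of 0. Of the 6 probe sets of the myosin side, Myh11, Myl9 and Mylk, 5 were below 0, with a median of -0.15 and a range from -0.37 to 0.02. Of the 7 probe sets of thin filament genes, 6 were above 0, with a median of 0.24 and a range from -0.11 to 0.67. On U74Av2 alone the medians were -0.08 over 3 probe sets and 0.15 over 5. This grouping was made after the values were seen, the probe sets share arrays and genes, and 8 of the 13 ratios are within the spread. The exceptions are Myh11 on U74Av2, at 0.02, and the bright Acta2 probe set, at -0.11. Acta2, Myh11, Mylk and Tpm1 had more than 1 measured probe set, which made 6 pairs, and 4 of the 6 pairs had the same sign. Those 4 all came from Mylk, whose pairs reuse its 3 probe sets, and Tpm1. Acta2 and Myh11 had opposite signs. Among all probe sets above the floor on both arrays, 49.3% were above 0 on U74Av2, 50.3% on U74Bv2 and 49.7% on U74Cv2. The sign of Myh11 on U74Av2 turned with loess scaling, and no other of the 13 signs turned with the values as deposited, quantile normalization or loess.

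Over genes, the median of the 8 measured members was 0.20, with 5 above 0, beside 0.00 over all 11320 genes measured. Of those 11320 genes, 49.3% were above 0. The median of the members depends on the choice of probe set. It was 0.03 with each gene read by the set ranking highest in signal on its chip, 0.03 on U74Av2 alone, 0.04 without U74Cv2 and -0.07 with the floor raised to the 60th percentile. In RNA of many cells, a lower share of contractile cells and less RNA of these genes in each cell cannot be told apart, and neither can their opposites.

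**Figure D3:**
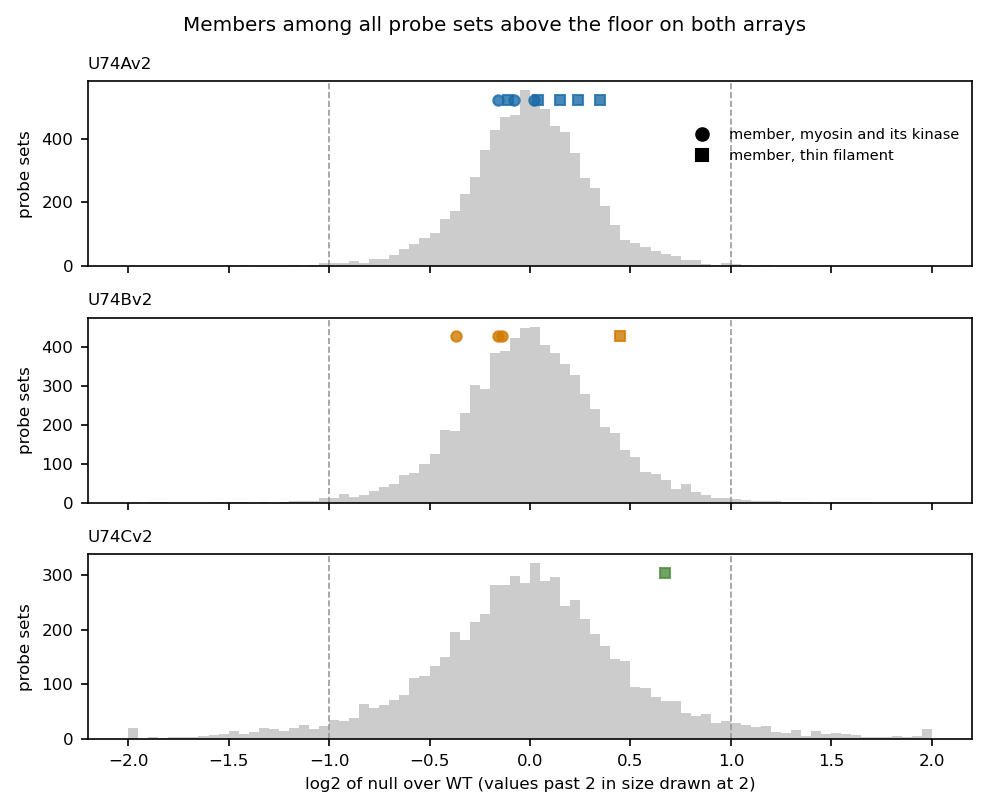
Histograms of the log2 ratio of null over WT for all probe sets above the floor on both arrays of each chip (y axis: number of probe sets; values past 2 in size are drawn at 2), with the member probe sets marked above them. The 8 members on U74Av2 lie between -0.16 and 0.35, the 4 on U74Bv2 between -0.37 and 0.45, and the 1 on U74Cv2 at 0.67, where the distribution is widest.

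For the control of these genes, the promoter table of RefSeq (GRCm38.p6) held a window of 250 bases before to 50 after the start for 7 of the 10 members. A CArG box was searched in it, 10 bases that read the same on both strands in its pattern, and also a near match with 1 off-pattern base among the 6 core bases. A box or near match was found in 2 of the 7 windows, Acta2 and Myl9, where 9.98% of all 32851 windows held one. A box without a mismatch was found only in Myl9 among the 7, where 1.63% of all windows held one. The sites are shown because they are the kind of element through which SRF is known to act on this gene group; capitals mark the box, with 10 bases on either side, 5′ to 3′ on the gene's strand.
Myl9, 161 bases before the start, no mismatch, chr2:156775293-156775322, plus strand: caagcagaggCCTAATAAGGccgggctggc
Myl9, 99 bases before the start, 1 mismatch, chr2:156775355-156775384, plus strand: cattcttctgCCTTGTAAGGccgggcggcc
Acta2, 84 bases before the start, 1 mismatch, chr19:34255438-34255467, minus strand: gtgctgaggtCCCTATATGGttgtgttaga
Acta2, 34 bases before the start, 1 mismatch, chr19:34255388-34255417, minus strand: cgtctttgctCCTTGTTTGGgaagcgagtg

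These are matches of letters, and whether SRF binds them was not tested. The windows of Cnn1, Mylk, Des, Tpm1 and Tpm2 held no such match, which says only that the letters are not in them. The 2 genes with sites stood at -0.08 for Myl9 and at -0.11 and 0.67 for Acta2.

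None of the probe sets of the 18 genes of the SRF and myocardin pathway was 2-fold different. The shares of all probe sets that were came to 0.908% on U74Av2, 1.82% on U74Bv2 and 11.1% on U74Cv2. The median of the 18 gene values was 0.12, and 12 of them were above 0, where 49.3% of all genes measured were. Srf itself, the factor that binds the CArG box, was read by 3 probe sets on U74Bv2, at 1039.4 and 1126.7 in 107469_at, 1143.8 and 1157.3 in 117210_at, and 600.7 and 672.9 in 165220_r_at. Its log2 ratios were 0.11, 0.01 and 0.16, all within the spread. Myocd, myocardin, was read just above the floor on U74Cv2 by 140750_at, at 159.1 and 183.8, a log2 ratio of 0.18. Mrtfb, a relative of myocardin, read 868.8 and 725.1 in 115525_at on U74Bv2, a log2 ratio of -0.27, and 246.4 and 143.4 in 134532_at on U74Cv2, a log2 ratio of -0.80 that exceeds the spread of 0.58. Mrtfa, its close relation, stood at 0.27 on U74Av2. The largest ratio reported here of the list on U74Av2 was 0.43 for Diaph1, a formin that builds actin filaments. It comes from a dim probe set, and the others gave -0.05 and 0.11.

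Of 35 further genes of smooth muscle, 33 were on the arrays and 25 were measured on both arrays of a chip. Their median was 0.11, and 17 of the 25 were above 0, where 49.3% of all genes measured were. Past 2-fold upward in Null were 2 probe sets, 1 of them with WT at the floor, and past 2-fold downward was 1, with Null at the floor. All of these were on U74Cv2, where 11.1% of all probe sets above the floor on at least 1 array were 2-fold different. Of those in the list, only that of Synpo2, an actin-bundling protein of muscle, was above the floor on both arrays. It read 545.6 and 1370.1 in 130512_at on U74Cv2, a log2 ratio of 1.30. Another Synpo2 probe set on that chip read 2406.3 and 2339.3, a log2 ratio of -0.06. Smtn, smoothelin, a marker of fully contractile smooth muscle, was under the floor at 41.5 and 33, as were 6 other genes of the list.

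Markers of other cells were read in the same RNA. Of the labelled cell type, 15 of 20 genes of germ cells and spermatogonia were on the arrays and 14 were measured. Of the 14, 8 had a gene value above 0, where 49.3% of all genes measured did. The targeted gene, Zbtb16, is among the 14 and lies below 0. On U74Av2 alone 6 of 9 germ cell genes were above 0. Dazl, an RNA-binding protein of germ cells, read 4287.3 and 6372.8 in 94750_at on U74Av2, a log2 ratio of 0.56, while its dimmer set 160357_at on that chip read 281.9 and 226.7, a log2 ratio of -0.32. Tex101, a surface protein of germ cells, stood at -0.53 on U74Bv2, and Stra8, which is needed for entry into meiosis, at -0.18 on U74Av2. Ddx4 of the same list stood at 0.56 on U74Av2, beyond the spread of 0.27, and at 0.25 on U74Cv2, within the spread of 0.44. The germ cell genes thus lay on both sides of 0. Somatic markers were read too, with 14 of 14 Sertoli genes, 6 of 7 Leydig genes, 13 of 14 endothelial genes and 6 of 11 genes of pericytes and the vessel wall measured. Over all named genes, 11320 of 15964 were measured, so these counts alone do not show which cells were present. Of 23 striated muscle genes 7 were measured on both arrays, and 11 had no probe set above the floor, Acta1, Myh1, Myh2, Ttn and Mb among them. Of the others, Ckm, muscle creatine kinase, had 2 probe sets that read 958.1 and 815.9, and 930 and 339.1, on U74Cv2. Its other 2, on U74Av2, were under the floor on both arrays, at 97.2 and 10.3, and at 12.7 and 11.3, so the chips do not show Ckm alike. Zbtb16, the targeted gene, read 770.2 in WT and 158.1 in Null in 92202_g_at on U74Av2, a log2 ratio of -2.29, and 1156.8 and 510.8 on U74Cv2, a log2 ratio of -1.20.

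**Figure D4:**
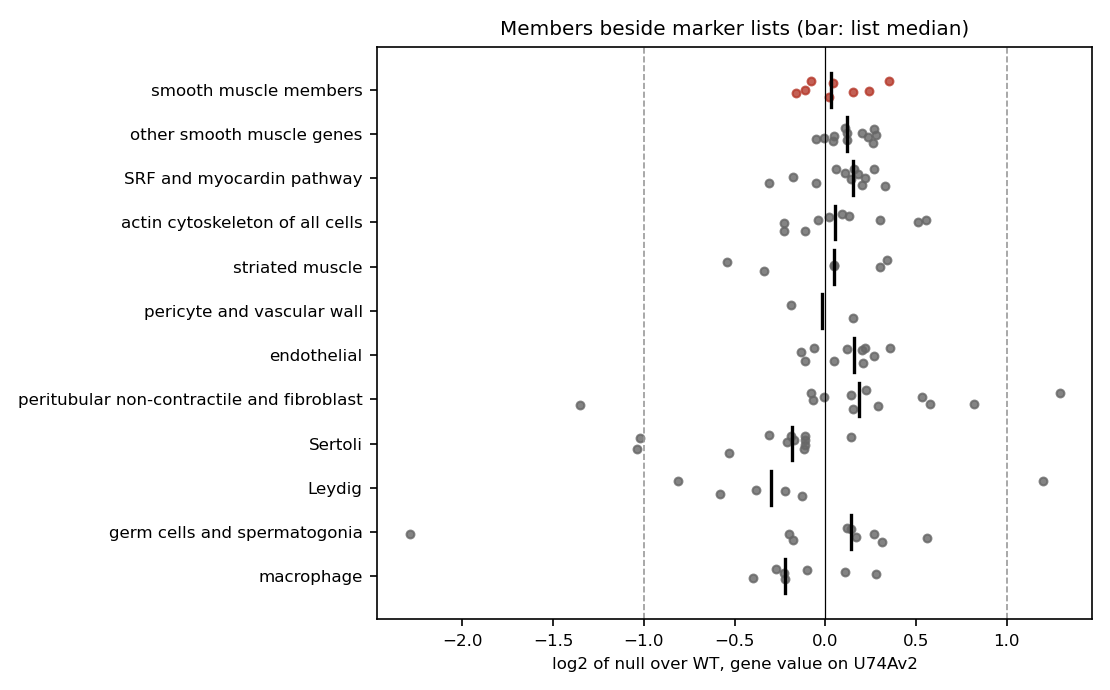
Gene values on U74Av2 (median log2 ratio of null over WT over a gene's probe sets above the floor on both arrays) for the members, in red, and for each marker list, in grey; the black bar is the list's median and the dashed lines mark 2-fold. The 8 members lie between -0.16 and 0.35 with a median of 0.03. The list of other smooth muscle genes is as narrow, from -0.05 to 0.28, and the matrix and fibroblast list runs from -1.35 to 1.29.

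Genes of neighbouring cell types gave the following values on U74Av2. Genes of fibroblasts and of the non-contractile side of peritubular cells had a median of 0.19 over 12 genes there, and their summed signal was 22501 in WT and 29378.4 in Null. Most of that difference lay in 7 probe sets of 3 collagen genes, which summed to 12534.6 and 18800.9, and the 10 probe sets of the other 9 genes summed to 9966.4 and 10577.5. Among the latter, Dcn stood at 0.14, Igfbp6 at -0.08 and Tcf21 at -0.07, while Lum stood at 0.82, beyond the spread of 0.35. Sfrp1, also among them, stood at 0.29 on U74Av2, within that spread, and at 0.65 on U74Bv2, beyond the spread of 0.34. Within the collagens a dimmer set of Col1a2, 161156_r_at, stood at -0.43 against 0.73 in 101130_at. Postn, the matrix protein periostin, stood at 1.29, from 231.1 and 566.7. Nr2f2, an orphan nuclear receptor of interstitial cells, stood at -1.35 in 103052_r_at, from 756.8 and 298.4, with -0.54 on U74Cv2. The Nr2f2 sets 161792_f_at on U74Av2 and 106526_at on U74Bv2 were under the floor on both arrays. Col1a1, a chain of type I collagen, read 3075 and 4733.2 in 103709_at, a log2 ratio of 0.61, and 1978.7 and 2896.1 in 94305_at, a log2 ratio of 0.54. The sums of the contractile members on that chip were 10721.6 in WT and 10459.9 in Null. Medians on U74Av2 were -0.18 over 12 Sertoli genes, -0.30 over 6 Leydig genes, -0.22 over 7 macrophage genes, 0.16 over 10 endothelial genes, 0.14 over 9 germ cell genes and 0.06 over 10 actin cytoskeleton genes found in all cells. Their part in the members' ratios was not tested. No difference between the members and any of these lists was tested.

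By the same naming rule, the probe sets above the floor on both arrays and at least 2-fold different in the other lists were few. On U74Av2 they were Rhox5 at -1.04 and Tsx at -1.02 among Sertoli genes and Hsd17b3 at 1.20 among Leydig genes. On U74Cv2 they were Fcgr1 at 1.41 among macrophage genes, 1 Ckm probe set at -1.48 among striated muscle genes, and 1 of Myl12a at -1.33. That chip also gave Bcl6b at 1.16 and 1 probe set of Sall4 at -1.32 among germ cell genes. Zbtb16 passed 2-fold on both chips. Hsd17b3 was the only 1 of the 6 Leydig genes measured on U74Av2 with a value above 0. Of the others there, Cyp11a1 stood at -0.81 and Hsd3b1 at -0.58. Of all probe sets above the floor on at least 1 array, 11.1% were 2-fold different on U74Cv2 and 0.908% on U74Av2. The Bcl6b set read 160.7 in WT, near the floor of 124, and a Bcl6b set on U74Av2 was under the floor in WT. Sall4, a zinc finger factor of spermatogonia, went the other way in its other 2 probe sets, at 0.27 on U74Av2 and 0.63 on U74Bv2, the latter beyond the spread of 0.34, so the arrays give it no direction. Fcgr1, an Fc receptor, also stood at 0.28 on U74Av2, within the spread of 0.35. The Fcgr1 set on U74Cv2 read 149.2 in WT, near the floor of 124. Of the 7 macrophage genes measured, 2 had a gene value above 0, Fcgr1 among them. Myl12a is a regulatory light chain of myosin in cells that are not muscle. Its 2 probe sets on U74Cv2 read 833.9 and 336.7, and 7412.3 and 6046.8, the latter with a log2 ratio of -0.32. Myh9, a heavy chain of that myosin, went the other way on U74Av2, at 0.28 in 100915_at and 0.74 in 102108_f_at, with 0.00 on U74Bv2. Myl12b of the same list stood at -0.23 on U74Av2, beyond the spread of 0.15. None of the 18 endothelial and 6 pericyte probe sets above the floor on both arrays was 2-fold different. Of the endothelial sets above the floor on both arrays of U74Av2, the largest ratios were 0.39 for Sox18 and 0.35 for Emcn. Notch3 at -0.19 and Mcam at 0.15 were the only 2 pericyte genes measured on both arrays of that chip. Angpt1 of the pericyte list lay under the floor in Null on U74Cv2, at a bound of -1.14. The Emcn value comes from a set near the floor, at 114.7 and 147.5, and the brighter Emcn set on that chip, at 203.8 and 172.3, gave -0.25. For Sox18 a second set on U74Av2 gave 0.32, and one on U74Cv2 read 171.7 in WT and lay under the floor in Null, at 65.5.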

How the data were processed

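The authors deposited 1 linear intensity per probe set and array. The 2% trimmed mean was 500.3, 500.1 and 500.3 on the arrays of U74Av2, U74Bv2 and U74Cv2, so these values had been scaled array by array. Software, background correction and detection calls: not given in the sources used here. Groups came from the sample titles. Gene names came from GEO's platform annotation, and all 22 member probe sets matched a RefSeq gene (GRCm38.p6) of the same symbol.

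Each chip lost 66 control probe sets. Null was scaled to WT by the median ratio over the upper 50% of probe sets by mean rank, a log2 shift of 0.01, 0.00 and 0.02. Values under the 40th percentile were raised to it before the log2 ratio of Null to WT. A gene's value is the median over its probe sets above the floor on both arrays. No test was possible with 1 array per genotype on a chip. All members are described. From each other list the text names probe sets at least 2-fold different and above the floor on both arrays, or else the 2 largest ratios on U74Av2; other genes named from the lists were chosen after their values were seen. 1 result under this rule is not reported here. The members and lists were chosen with earlier results of these data known. The tools were pandas 2.3.3, numpy 2.4.6, scipy 1.17.1, statsmodels 0.14.6, matplotlib 3.10.9 and Python 3.11.15, and the calculation was tested on simulated data. Alternatives were other scalings, floors, fold thresholds, chips and probe sets.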

Additional observations from a re-analysis of the deposited data

How the results depend on the processing

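The count of member probe sets at least 2-fold different stayed at 0 with the values as deposited, quantile normalization, loess, the floor at the 60th percentile, a 3-fold threshold, probe sets without a suffix letter, U74Av2 alone and without U74Cv2. It was 1 at 1.5-fold, 2 with the floor at the 20th percentile (Actg2 at a bound of -1.48 on U74Bv2 and Tpm1 at a bound of 1.46 on U74Cv2) and 5 with no floor, all 5 from probe sets at or under the floor on both arrays. With no floor Actg2 as a gene turned from 0.35 to -1.83 and Tpm2 moved from 0.15 to 0.75. The median of the member genes ranged from -0.07 to 0.20 over 11 alternatives. The widest move, with the floor at the 60th percentile, was about as large as 0.27, the spread at middle level on U74Av2 used here in place of a replicate error, and the others were smaller. The floor at the 60th percentile was the 1 setting that turned its sign. Acta2 as a gene turned from 0.28 to -0.11 with the floor at the 60th percentile, on U74Av2 alone and without U74Cv2, each of which drops its dim probe set. Myh11 as a gene turned from -0.07 to 0.02 on U74Av2 alone. The medians by role, an alternative added after seeing the data, ranged from -0.16 to -0.08 for myosin and its kinase and from 0.14 to 0.25 for the thin filament over 9 settings each. These settings reuse the arrays from which the grouping was drawn, so the ranges are no check of it. Low signal limits 9 of the 22 probe sets, which were under the floor on at least 1 array.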
